A study of Mus musculus with 8 samples.

Results

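The glutathione, glucuronic acid and sulfate transferases of the mouse kidney are described here in mice that had lost Sdhd, which anchors succinate dehydrogenase in the inner mitochondrial membrane. The members were taken by gene symbol. They were the glutathione transferases of the alpha, kappa, mu, omega, pi and theta classes (Gsta, Gstk, Gstm, Gsto, Gstp and Gstt). Also taken were the microsomal glutathione transferases (Mgst), the UDP-glucuronosyltransferases (Ugt1, Ugt2 and Ugt3) and the sulfotransferases (Sult). Gm10639, a predicted member of the alpha class, was chosen by its measured difference in log2 ratio between SDHD-ESR and +/- kidneys, so its values are a description and carry no test. This gave 57 genes on 99 of 45220 array features, out of 22485 genes named on the array, and 51 of these genes, on 91 features, were tested, since SDHD-ESR and +/- each had 3 or more values for them. The set as a whole was also proposed with the comparison of SDHD-ESR and +/- known, so counts over its members describe it and lend it no support. Several families hold near-identical copies, and signal shared between the probes of close paralogs was not tested.

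SDHD-ESR mice carried a null and a floxed Sdhd allele and a tamoxifen-inducible Cre recombinase, whose promoter is not given in the sources used here, +/- mice carried the same null and floxed alleles without Cre, and +/+ mice, with a floxed and a wild-type allele and no Cre, supplied the common reference. All were males on a 129/SvJ background and were 10 weeks old, and all had been given tamoxifen (100 µg/g on each of 4 days, starting at 9 weeks). RNA of 8 SDHD-ESR and 8 +/- mice was hybridised on 4 two-colour arrays per group, or 2 mice per array if divided evenly, against 1 pool of RNA from 8 +/+ mice. Cre was present in SDHD-ESR alone, so loss of Sdhd and presence of Cre cannot be told apart. Whole kidneys were measured, in which fewer cells of a type and less RNA per cell cannot be told apart. The values are log2 ratios over the +/+ pool, relative to the median of all features of the same array, and a ratio gives no level, so the presence of kidney marker genes could not be checked from them. The pool carried the same dye on every array, so a gene's dye effect and its difference from the pool cannot be told apart.

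These enzymes carry out the conjugation step of detoxification. Glutathione transferases join the thiol of glutathione to electrophiles such as oxidised lipids, and several also reduce lipid hydroperoxides. UDP-glucuronosyltransferases attach a sugar from a UDP donor to steroids, bilirubin and phenols, and sulfotransferases attach sulfate from the donor PAPS to phenols, steroids and amines. The proximal tubule of the kidney is rich in several of them, and many alpha and mu class genes are textbook targets of NRF2 (Nfe2l2), a transcription factor that responds to oxidants and electrophiles.

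The arrays fell on 2 slides, with arrays 1 and 2 of each group on slide 1 and arrays 3 and 4 on slide 2. The groups also held different positions on the slides, and position and genotype cannot be told apart. The sign of every value was turned against the deposited table, because Sdhd, on 1 feature, lay above the pool there. With the sign turned, Sdhd stood at -4.26, -3.65, -5.04 and -3.25 in SDHD-ESR and at -0.79, -0.40, -0.92 and -0.93 in +/-. The array medians before centring ran from -0.06 to 0.94 in SDHD-ESR and from -0.19 to 0.41 in +/-. Where each feature lies in the table was inferred from the layout of the scanner grid. Under this layout, repeated spots of an accession had an intraclass correlation of 0.588, over 320 accessions. Under the plain numbering it was -0.0123, over 137 accessions, so the sets compared differ.

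In the alpha class, Gm10639, Gsta1, Gsta2 and Gsta3 had higher means in SDHD-ESR than in +/- kidneys on both slides. In the RefSeq annotation of the mouse genome build GRCm38.p6, Gm10639 lies on chromosome 9 together with Gsta1, Gsta2 and Gsta4, and Gsta3 lies on chromosome 1. For Gm10639, Gsta1 and Gsta2, the 250 bases before the start used (RefSeq, GRCm38.p6) are shown. They were picked because these 3 genes are related copies that had higher means in SDHD-ESR on both slides. Capitals mark the longest run of letters that the 3 sequences share.
Gm10639, chr9:78289678-78289927, plus strand: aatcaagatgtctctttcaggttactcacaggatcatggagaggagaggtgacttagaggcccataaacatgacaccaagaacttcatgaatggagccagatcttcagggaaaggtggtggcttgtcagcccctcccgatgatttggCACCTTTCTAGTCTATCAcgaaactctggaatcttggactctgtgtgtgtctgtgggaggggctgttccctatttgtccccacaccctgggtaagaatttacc
Gsta1, chr9:78230419-78230668, plus strand: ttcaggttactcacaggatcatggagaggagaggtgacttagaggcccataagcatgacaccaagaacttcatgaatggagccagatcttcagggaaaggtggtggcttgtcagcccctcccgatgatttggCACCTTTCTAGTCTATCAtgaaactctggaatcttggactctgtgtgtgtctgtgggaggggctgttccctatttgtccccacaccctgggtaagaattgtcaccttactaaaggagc
Gsta2, chr9:78347146-78347395, minus strand: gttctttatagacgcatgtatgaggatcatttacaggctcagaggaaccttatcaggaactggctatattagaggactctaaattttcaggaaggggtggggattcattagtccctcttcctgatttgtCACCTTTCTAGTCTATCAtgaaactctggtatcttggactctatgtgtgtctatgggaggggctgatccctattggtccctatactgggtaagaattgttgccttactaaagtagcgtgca

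The shared run was 18 bases long. It began 103 bases before the start used for Gm10639, 118 before that for Gsta1 and 121 before that for Gsta2. The annotated span of Gsta2 reaches to base 78347192, inside the sequence shown, so its distance is not like those of Gm10639 and Gsta1. The upstream sequence of Gsta3 also overlaps its annotated span. In global alignment the upstream sequence of Gm10639 was 87.9% identical to that of Gsta1 and 62.1% identical to that of Gsta2, and that of Gsta1 was 70.5% identical to that of Gsta2. The upstream sequence of Gsta3 was 50.6% to 52.2% identical to those of Gsta1 and Gsta2, and 51.6% to that of Gm10639. The core of the antioxidant response element through which NRF2 acts (TGACNNNGC on either strand) was present in the upstream sequence of Gsta3 and in none of the 3 shown. A RefSeq upstream sequence was matched for 50 of the 57 genes, in 61 windows of 250 bases, of which 4 held that core (6.56%, against 10.2% of all 32851 windows). The xenobiotic response element bound by the aryl hydrocarbon receptor has the core GCGTG. On either strand, this core was present in 10 of the 61 windows (16.4%, against 28.2% of all windows), among them that of Gsta2 shown above. In Gsta2 it lay close to the start used, within the annotated span of the gene. GTTAAT, part of the site of the proximal tubule and liver factor HNF1, was also present in 10 (16.4%, against 6.43% of all windows). These matches describe letters in these windows and were not tested as sites. Sequence further upstream was not read, so whether these genes hold such elements there cannot be seen from these windows.

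Gm10639 stood at 1.49, 1.85, 1.59 and 1.20 in SDHD-ESR and at 0.50, 0.48, -0.00 and 0.28 in +/- (log2 over the pool, mean of 2 features). All SDHD-ESR values lay above all +/- values, and both slides gave the difference alike. The mean was 1.53 ± 0.27 in SDHD-ESR and 0.31 ± 0.23 in +/- (SD, n = 4 each). The difference was 1.22 ± 0.17 (SE), a fold of 2.33, and it was 1.18 on slide 1 and 1.26 on slide 2.

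Gsta2, whose product conjugates electrophiles and reduces lipid hydroperoxides, stood at 0.99, 1.16, 0.86 and 1.18 in SDHD-ESR and at 0.45, 0.52, 0.19 and 0.51 in +/-. The groups did not overlap, and both groups lay above the pool on all arrays. The difference was 0.63 ± 0.11 (SE, fold 1.55), with 0.60 on slide 1 and 0.67 on slide 2. Gsta3 stood at 0.54, 0.64, 0.49 and 0.59 in SDHD-ESR and at 0.31, 0.09, 0.15 and 0.43 in +/-, again without overlap. Its difference of 0.32 ± 0.10 (SE) was the mean of 2 unlike features, 1 with a difference of 0.53 and the other of 0.11. In the feature with the difference of 0.11 the groups overlapped. Gsta1, a close relative of Gsta2, stood at 0.42, 0.50, 0.82 and 0.47 in SDHD-ESR and at 0.23, 0.07, 0.07 and 0.44 in +/-, and the groups overlapped at 1 array of each. Its difference was 0.35 ± 0.13 (SE), with 0.31 on slide 1 and 0.38 on slide 2.

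Gsta4, which prefers the lipid peroxidation product 4-hydroxynonenal, was read by 10 features and did not share that pattern. It stood at 0.36, 0.54, -0.10 and -0.08 in SDHD-ESR and at -0.06, -0.16, 0.16 and -0.24 in +/-. The SDHD-ESR arrays of slide 1 were above all +/- arrays, while those of slide 2 were not. All 10 features had a higher mean in SDHD-ESR, by 0.10 to 0.39, and the gene's difference was 0.26 ± 0.17 (SE), with 0.56 on slide 1 and -0.04 on slide 2.

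**Figure D1:**
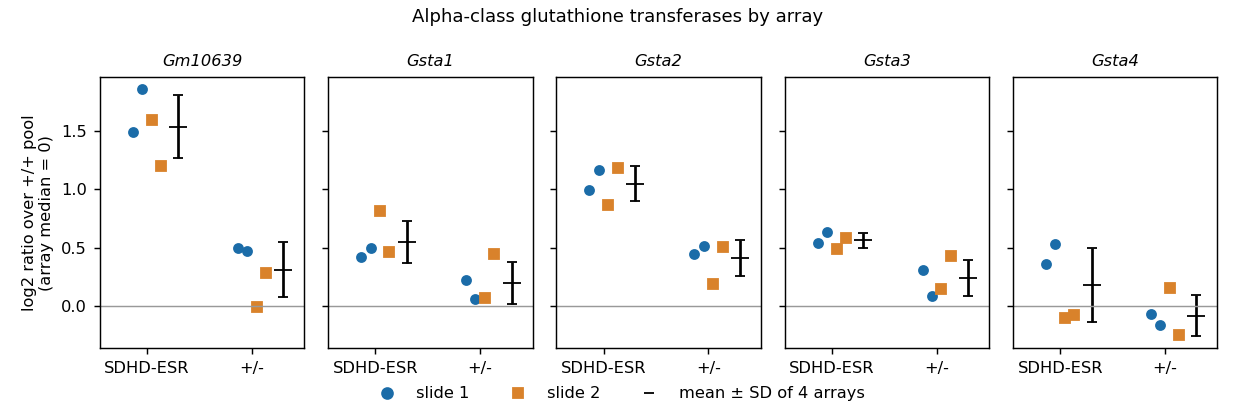
Log2 ratio over the +/+ pool, relative to the array median, of 5 alpha-class genes in 4 SDHD-ESR (left) and 4 +/- (right) arrays, with circles for slide 1, squares for slide 2 and bars for mean ± SD. Gm10639, Gsta2 and Gsta3 show no overlap between the groups, whereas the higher values of Gsta4 in SDHD-ESR are those of slide 1.

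The 7 mu-class genes, whose products act on epoxides and other electrophiles and which lie together on chromosome 3, differed little. All 7 had a higher mean in SDHD-ESR, by 0.03 to 0.26, with a median of 0.16, and the groups overlapped in each. The largest was that of Gstm3, whose 2 features went opposite ways, by -0.14 and 0.25. The feature with the lower values was missing on SDHD-ESR array 1, which raised the gene's mean on that array. The median was 0.35 on slide 1 and -0.02 on slide 2. Gstm1 stood at 0.44, 0.60, 0.33 and 0.33 in SDHD-ESR and at 0.30, 0.34, 0.28 and 0.19 in +/-, a difference of 0.15 ± 0.09 (SE). Both groups were above the pool on all arrays, as were Gstm2, Gstm4 and Gstm5. Gstm4 differed by 0.15 ± 0.08 and Gstm2 differed by 0.16 ± 0.11. The 11 features of Gstm7 ranged in difference from -0.13 to 0.60.

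Gstp1, the main pi-class enzyme, stood at 0.52, 0.50, 0.56 and 0.57 in SDHD-ESR and at 0.26, 0.31, 0.48 and 0.43 in +/-. On the mean of 2 features the groups did not overlap but came close, and the difference was 0.17 ± 0.08 (SE). The groups overlapped in the feature that differed by 0.09 and not in the other, which differed by 0.25. Gstp2, a neighbouring copy, differed by -0.04 ± 0.10, and 1 of its 2 features had a deposited ratio near 0. Gstp3 ranged from -0.75 to 1.51 in SDHD-ESR and from -1.10 to 0.17 in +/-, too wide a spread for its difference of 0.54 ± 0.53 to stand apart.

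Among the kappa, omega and theta classes, 5 of 7 genes had a higher mean in SDHD-ESR. Gsto1, which reduces dehydroascorbate, stood at 0.49, 0.57, 0.47 and 0.45 in SDHD-ESR and at 0.07, 0.01, 0.20 and 0.47 in +/-, with overlap at +/- array 4. Its difference was 0.31 ± 0.11 (SE), with 0.49 on slide 1 and 0.13 on slide 2. Gstk1, an enzyme of mitochondria and peroxisomes, stood at 0.72, 0.93, 0.35 and 0.41 in SDHD-ESR and at 0.32, 0.09, 0.50 and 0.56 in +/-. Its difference was 0.62 on slide 1 and -0.16 on slide 2. Gstt4 was scattered, from -2.31 to -0.60 in SDHD-ESR and from -2.06 to -0.20 in +/-, and differed by -0.89 ± 0.53.

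The microsomal enzymes sit in membranes of the endoplasmic reticulum and mitochondria. Mgst3, a glutathione peroxidase and transferase, stood at 0.41, 0.50, 0.30 and 0.16 in SDHD-ESR and at 0.11, 0.09, 0.06 and 0.04 in +/-, without overlap. Its 2 features differed by 0.26 and 0.29, and the gene by 0.27 ± 0.09 (SE). In the feature with the difference of 0.26 the groups overlapped. Mgst1 stood at 0.74, 0.92, 0.18 and -0.07 in SDHD-ESR and at -0.07, -0.02, -0.16 and -0.04 in +/-. Slide 1 gave a difference of 0.88, where the groups stood clear of each other, and slide 2 one of 0.15, where they overlapped. Mgst2, which can make leukotriene C4, lay below the pool on all arrays, at -0.90 ± 0.34 in SDHD-ESR and -0.74 ± 0.18 in +/- (SD, n = 4 each).

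In the Ugt2 and Ugt3 families, which conjugate steroids, bile acids and drugs, the direction depended on the scaling of the arrays. The array medians averaged 0.32 in SDHD-ESR and 0.05 in +/-. The difference of a gene with values on every array therefore lies 0.26 lower after centring than before. A lower mean in SDHD-ESR was the common case only after centring. It was found in 9 of 10 genes after centring, with a median of -0.26, but in 5 of 10 before centring, with a median of 0.00, and the groups overlapped in each gene. Ugt2a1 stood at 0.34, 0.23, 0.02 and -0.02 in SDHD-ESR and at 0.32, 0.30, 0.35 and 0.60 in +/-, a difference of -0.25 ± 0.12 (SE). The lower values were the SDHD-ESR arrays of slide 2. In Ugt2b36 the order was the reverse, with -0.07 and -0.88 on the SDHD-ESR arrays of slide 1 and 0.20 and 0.83 on those of slide 2, against 0.55, 0.89, -0.04 and 0.67 in +/-. Its difference was -1.19 on slide 1 and 0.20 on slide 2, and that of Ugt2b35 was -1.55 on slide 1 and 0.35 on slide 2.

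A property of the deposited values bears on this family. Ugt2b37, Ugt2b38, Ugt3a1 and 1 of 2 features of Ugt3a2 had deposited ratios within 0.01 of 0 on at least 4 arrays, and so had 1 feature each of Gstp2 and Ugt1a6a. After centring, such a value is the array's median with its sign changed. Ugt2b38, near 0 on all 8 arrays, stood at -0.00, 0.06, -0.39 and -0.94 in SDHD-ESR and at 0.19, 0.19, -0.20 and -0.41 in +/-. Ugt2b37 was near 0 on 4 arrays.

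From the Ugt1 locus, Ugt1a6a, which prefers planar phenols, differed by 0.32 ± 0.23 (SE) and Ugt1a10 by 0.36 ± 0.49. Ugt1a10 stood at 0.89, 0.86, -0.36 and -0.54 in SDHD-ESR and at -0.31, -0.30, 0.92 and -0.92 in +/-, a difference of 1.18 on slide 1 and -0.45 on slide 2.

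Among the sulfotransferases, Sult1a1, which sulfates phenols, showed the clearest split between slides. It stood at 1.18, 1.21, 0.09 and 0.05 in SDHD-ESR and at 0.00, 0.08, -0.05 and 0.02 in +/-, and both of its features had this shape. Slide 1 gave a difference of 1.15 and slide 2 one of 0.09. Sult1b1, which acts on thyroid hormones, was split in the same direction, at 0.50, 0.48, -0.07 and 0.07 in SDHD-ESR and at -0.12, -0.23, 0.53 and 0.21 in +/-. The 2 features of Sult1d1, a sulfotransferase of catecholamines in the mouse, differed by 0.41 and by 1.45, the higher of them resting on a +/- array at -3.18.

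Sult1e1, the estrogen sulfotransferase, had a lower mean in SDHD-ESR, with values of 0.02, -0.55, -0.56 and -0.06, against 0.59, 0.30, 0.19 and -0.09 in +/-. The groups overlapped only through +/- array 4, and the difference was -0.53 ± 0.20 (SE), with -0.71 on slide 1 and -0.36 on slide 2. Sult2a7, of the hydroxysteroid sulfotransferases, stood at 0.42, -0.02, -0.01 and 0.45 in SDHD-ESR and at -0.05, -0.38, -0.49 and -0.27 in +/-, without overlap, and differed by 0.51 ± 0.16. Sult2a4 differed by 0.89 ± 0.42, and Sult2b1, which sulfates cholesterol, by 0.21 ± 0.15. Of 13 Sult2 to Sult6 genes 5 had too few values, as had Ugt2b1. Sult6b1, just inside the minimum, stood at 0.65, -2.07 and -1.58 in SDHD-ESR and at -1.05, -3.59 and -1.13 in +/-, and Sult3a2, just outside, at -1.51 and -1.08 in SDHD-ESR and from -3.16 to -0.36 in +/-.

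**Figure D2:**
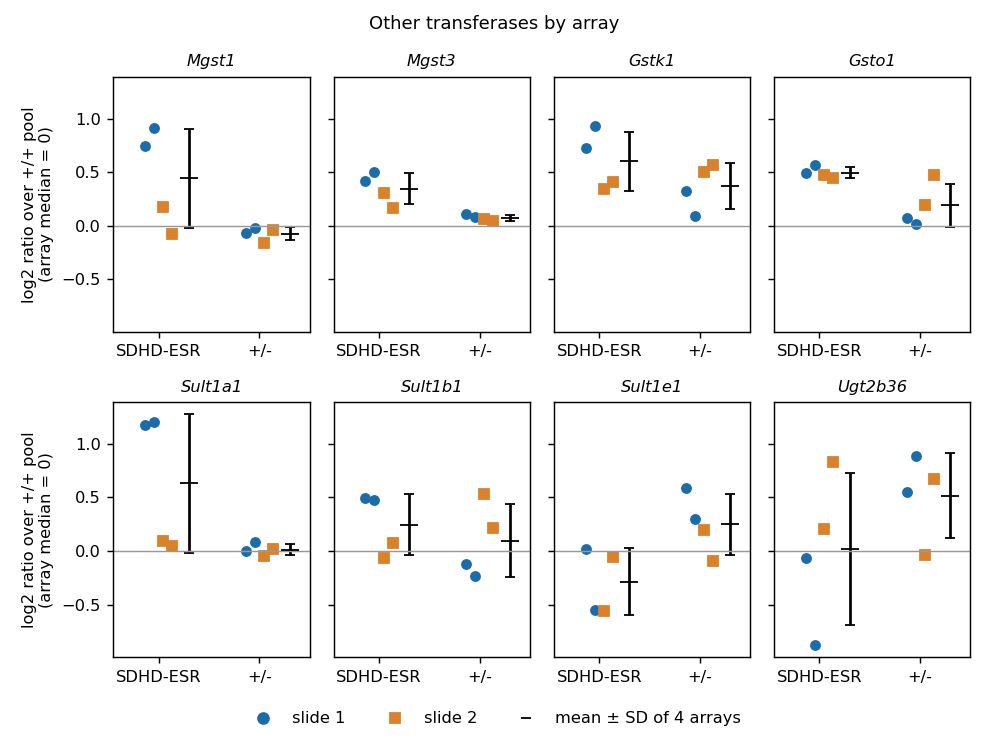
Log2 ratio over the +/+ pool, relative to the array median, of 8 further transferase genes in 4 SDHD-ESR (left) and 4 +/- (right) arrays, with circles for slide 1, squares for slide 2 and bars for mean ± SD. Mgst1 and Sult1a1 are high in SDHD-ESR on slide 1 alone (0.74 to 1.21), while the groups do not overlap in Mgst3.

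Over the whole set, 69 of 91 features and 34 of 51 genes had a higher mean in SDHD-ESR than in +/- (75.8% and 66.7%, against 52.6% of all features and 52.6% of all genes). The median difference of the members was 0.21 over features and 0.15 over genes, against 0.01 over all features and over all genes. Before centring 42 of 51 genes had a higher mean in SDHD-ESR. The difference of any gene on the array with values on every array lies 0.26 higher before centring. The share of all genes that were higher then is not given, so this count is not particular to the transferases. limma called 0 of 91 features and 0 of 51 genes at an adjusted p of 0.05 or less (0.0153% of all features and 0.0147% of all genes were called). At an unadjusted p of 0.05 or less, 16 features and 9 genes passed (7.22% of all features and 7.71% of all genes), of which 15 features and 8 genes were higher (3.88% of all features and 3.96% of all genes). In 6 genes, Gm10639, Gsta2, Gsta3, Gstp1, Mgst3 and Sult2a7, all SDHD-ESR values lay above all +/- values (2.84% of all genes did so), and in 0 genes below (2.78%). A gene with several features was read by their mean, and in Gsta3, Gstp1 and Mgst3 the groups overlapped in a single feature. These counts include Gm10639, which was chosen by this very difference. This comparison also chose the set, so nothing is read from these counts.

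**Figure D3:**
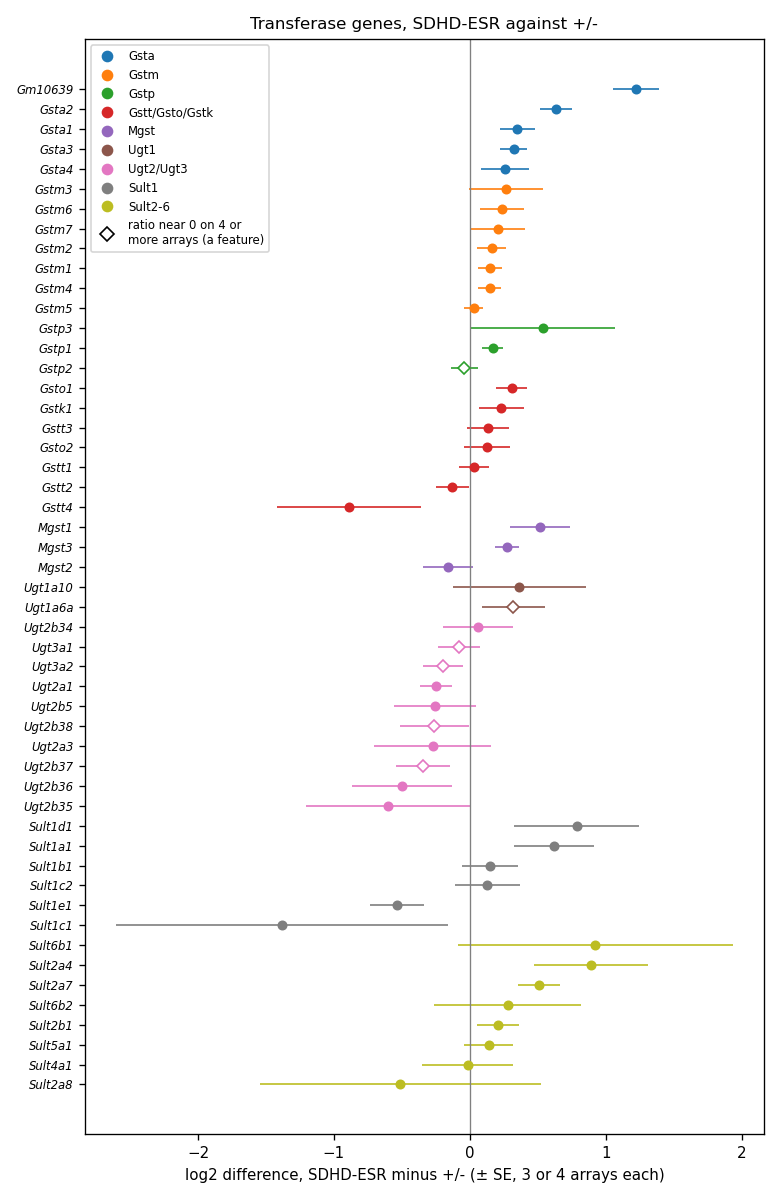
Log2 difference, SDHD-ESR minus +/-, of 51 transferase genes (± SE, 3 or 4 arrays per group), coloured and ordered by family, with open diamonds for genes that have a feature with a deposited ratio near 0 on at least 4 arrays. All 5 alpha-class genes lie to the right of 0, led by Gm10639 at 1.22, and 9 of 10 Ugt2 and Ugt3 genes lie to the left, against 5 of 10 before centring.

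After centring, the higher median of the set in SDHD-ESR came from slide 1. The medians taken off there were -0.00 and -0.06 in SDHD-ESR and -0.19 and -0.19 in +/-. On slide 2 they were 0.38 and 0.94 in SDHD-ESR and 0.20 and 0.41 in +/-, so centring lowered the differences more on slide 2. The split between slides, here and in single genes, therefore holds for centred values. How far it rests on the centring was not tested. The median over member features was 0.39 and 0.43 on the SDHD-ESR arrays of slide 1 and 0.06 and -0.01 on those of slide 2, against 0.06, -0.02, 0.15 and 0.05 in +/-. On slide 1, 73 of 91 features were higher in SDHD-ESR (80.2%, against 52.7% of all features), with a median difference of 0.39. On slide 2, 41 of 91 were higher (45.1%, against 49.0% of all features), with a median of -0.02. Sdhd differed by -3.36 on slide 1 and -3.22 on slide 2, so the deleted gene was low in SDHD-ESR on both. In a fit with a term for slide by genotype, added after the data were seen, limma called 0 of 51 member genes and 0 of all 20462, and 12 of 51 had an unadjusted p of 0.05 or less (7.95% of all genes did). Sult1a1 had the smallest p, with a slide 2 minus slide 1 change in the difference of -1.06 ± 0.13 (SE, limma adjusted p = 0.302). The slides also held different mice, so slide and mice cannot be told apart.

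Of the 6 genes without overlap, Gm10639, Gsta2 and Sult2a7 had at least as large a difference on slide 2 as on slide 1. Within slide 1 alone both SDHD-ESR arrays exceeded both +/- arrays in 29 of 50 genes (58%, against 24.9% of all genes), and within slide 2 in 11 of 49 (22.4%, against 17.6%). Both lay below both +/- arrays in 9 of 50 genes on slide 1 (18%, against 21.6% of all genes). On slide 2 they did so in 14 of 49 (28.6%, against 19.7%). The same comparison chose the set, so nothing is read from these counts either.

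**Figure D4:**
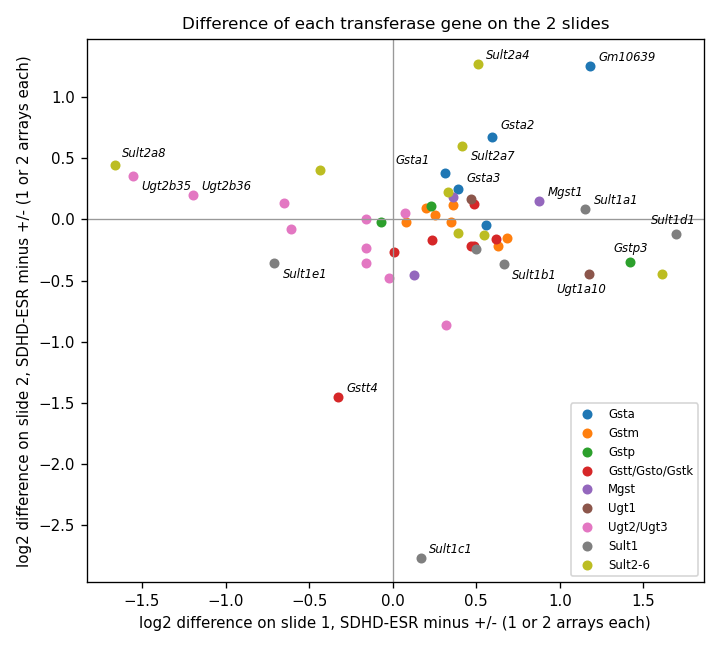
Log2 difference after centring, SDHD-ESR minus +/-, on slide 1 (horizontal) and slide 2 (vertical) for 51 transferase genes, coloured by family. Each slide had 1 or 2 arrays per group. Gm10639 (1.18 and 1.26) and Gsta2 (0.60 and 0.67) differ alike on the slides, whereas Sult1a1 (1.15 and 0.09) and Mgst1 (0.88 and 0.15) differ on slide 1.

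The comparisons of each group with the +/+ pool share the pool and use the same arrays as the comparison between the groups, and the pool's own spread does not enter their tests. With no dye swap, a call against the pool can also be a dye effect, and these cannot be told apart. Gm10639 carries no test and is left out of the counts, which leaves 50 genes and 89 features. In SDHD-ESR, limma called 12 of the 50 genes higher and 2 lower than the pool at an adjusted p of 0.05 or less (24.1% of all genes were called, 16% higher and 8.18% lower), and 27 of the 89 features (22.2% of all features). The higher ones included Gsta2 at 1.05 ± 0.08 (SE, limma adjusted p = 0.00155), Gsta3 at 0.56 ± 0.07, Gsta1 at 0.55 ± 0.09 and Gstp1 at 0.54 ± 0.06. The 2 lower genes were Mgst2 at -0.90 ± 0.13 and Gstt4 at -1.74 ± 0.37. By family, 3 of 4 alpha, 4 of 7 mu and 1 of 3 pi genes were called, all higher, as was 1 of 8 Sult2 to Sult6 genes. Of the 7 theta, omega and kappa genes 2 were called higher and 1 lower, and of the 3 microsomal genes 1 was called higher and 1 lower. None was called among 2 Ugt1, 10 Ugt2 and Ugt3 and 6 Sult1 genes.

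In +/-, 7 genes were called higher and 3 lower than the pool (10 of 50, against 17.4% of all genes, with 11.1% higher and 6.24% lower), and 15 of 89 features (16% of all features). The higher ones were Gsta2 at 0.41 ± 0.08, Gsta3, Gstm1, Gstm2, Gstm5, Gstp1 at 0.37 ± 0.06 and Ugt2a1 at 0.39 ± 0.08, and the lower ones Mgst2, Sult2a4 and Sult6b2. These calls rested on the centring and on the number of arrays. On the values before centring limma called 1 of the 50 genes in SDHD-ESR and 0 in +/-, and without any one +/- array it called 1 to 4 in +/-. The share of all genes called under these settings is not given, so these changes are not read as particular to the transferases.

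Genes that supply the donors, move the conjugates or regulate these enzymes were read in 8 lists, in which limma called 0 genes between SDHD-ESR and +/- (0.0147% of all genes). Abcc3, a basolateral exporter of glucuronide and glutathione conjugates, came closest. It stood at 1.10, 1.00, 0.85 and 0.72 in SDHD-ESR and at -0.03, -0.15, -0.21 and -0.12 in +/-. The difference was 1.05 ± 0.10 (SE, fold 2.07, limma adjusted p = 0.062), and it was 1.15 on slide 1 and 0.95 on slide 2. Slco1a1, an uptake carrier of organic anions, had a lower mean, with values of -0.80, -2.82, -1.37 and -0.09 in SDHD-ESR, against 0.34, 0.66, 0.30 and 0.50 in +/-. Its groups did not overlap, but its SDHD-ESR values were widely spread, and the difference was -1.72 ± 0.53. Of the 12 carriers measured, 5 had a higher and 7 a lower mean in SDHD-ESR, with a median difference of -0.05. The lower ones included Abcg2, read by a feature near 0, and Slc22a6, whose values followed the array medians with their sign changed. Without Abcg2 the median was -0.01.

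Gusb, the lysosomal enzyme that removes glucuronic acid, was read by 10 features and stood at -0.40, -0.66, -0.50 and -0.22 in SDHD-ESR and at 0.09, 0.26, 0.05 and 0.11 in +/-. The groups did not overlap and the difference was -0.57 ± 0.11 (SE). Slc35d1, which carries UDP sugars into the endoplasmic reticulum, differed by 0.25 ± 0.13, and the median of 7 genes of glucuronic acid supply and release was 0.03. Slc13a1, the sodium-dependent sulfate carrier of the proximal tubule, stood at 1.78, 2.00, 1.04 and 0.68 in SDHD-ESR and at 0.35, 0.17, 0.65 and 0.27 in +/-. Its groups did not overlap, and its difference of 1.01 ± 0.30 was 1.63 on slide 1 and 0.40 on slide 2. Slc26a1, a sulfate exchanger, differed by -0.31 ± 0.14, and the median of 15 genes of sulfate supply and release was -0.03.

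Several of these lists also held genes with a feature near 0, as described above for the Ugt families. The 12 measured genes of glutathione synthesis and recycling had 6 higher and 6 lower means and a median of -0.02, and without the 4 that had such a feature 5 were higher and 3 lower, with a median of 0.06. The glutaredoxin Glrx differed by 0.66 ± 0.35 and Esd, which opens a glutathione thioester and had 1 of 2 features near 0, by -0.30 ± 0.20. In glutathione breakdown and mercapturate formation, 2 of 14 genes had a higher mean, with a median of -0.07, and without the 4 with a feature near 0 it was 2 of 10, with a median of -0.04. Acy1, which deacetylates mercapturates, differed by -0.40 ± 0.19 and Ggt6 by 0.26 ± 0.12.

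Of 23 NRF2 targets that are not transferases, 14 had a higher and 9 a lower mean in SDHD-ESR, with a median of 0.04. Of the 9 lower genes 6 were read by a feature near 0, and over the other 17 targets 14 were higher, with a median of 0.08. All genes left out this way were lower ones, and no share over all genes left out alike is given. The median of the 23 targets was 0.05 on slide 1 and -0.05 on slide 2. At a limma unadjusted p of 0.05 or less, 4 of the 23 were higher and 1 was lower (3.96% and 3.75% of all genes). Cbr1, a carbonyl reductase, stood at 1.02, 1.42, 0.99 and 0.95 in SDHD-ESR and at 0.34, 0.02, 0.36 and 0.60 in +/-, a difference of 0.77 ± 0.16 (SE) without overlap. Srxn1, which reduces oxidised peroxiredoxins, differed by 0.33 ± 0.10. Among 13 regulators, with 10 higher and a median of 0.09, Nfe2l2 itself stood at 0.32, 0.50, 0.57 and 0.54 in SDHD-ESR and at 0.30, -0.04, 0.08 and 0.40 in +/-, a difference of 0.30 ± 0.12. Maff, a small Maf partner of NRF2, differed by 1.06 ± 0.40. Of 18 other transferases and relatives, 8 were higher and 10 lower, with a median of -0.03 (0.01 without 2 near 0), and Glyat, which conjugates acyl groups to glycine, differed by -0.41 ± 0.10 and Clic4 by -0.18 ± 0.07.

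**Figure D5:**
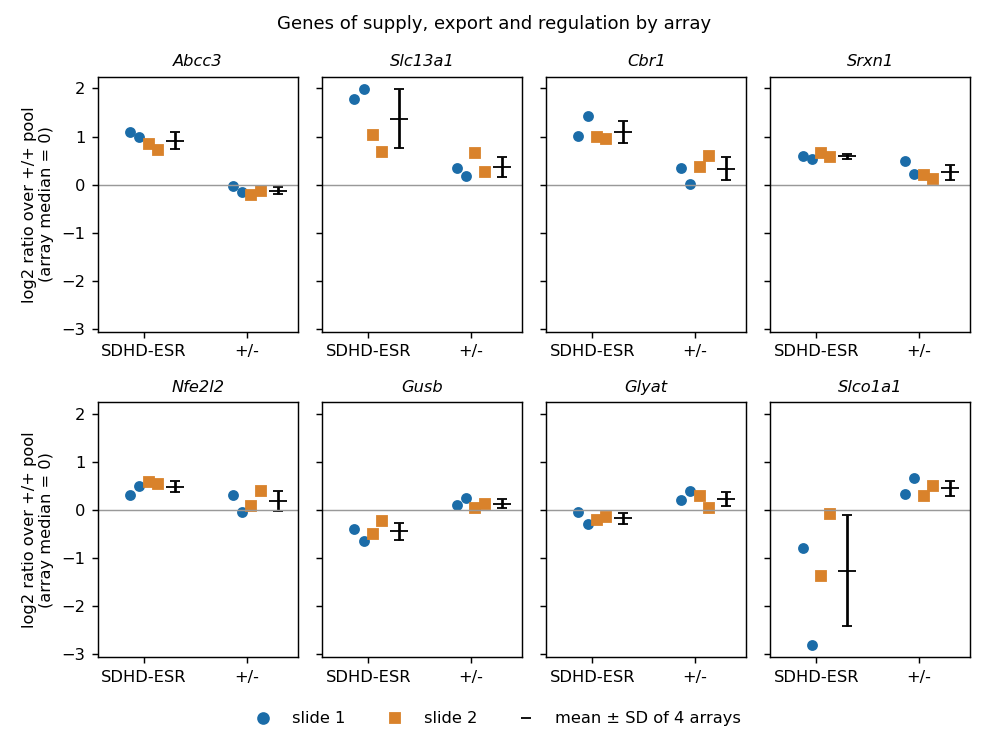
Log2 ratio over the +/+ pool, relative to the array median, of 8 genes of conjugate transport, donor supply and regulation in 4 SDHD-ESR (left) and 4 +/- (right) arrays, with circles for slide 1, squares for slide 2 and bars for mean ± SD. Abcc3 and Cbr1 are higher in SDHD-ESR on both slides, Gusb is lower on both, and Slc13a1 is highest on the SDHD-ESR arrays of slide 1 (1.78 and 2.00).

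Markers of other cell types were read beside the members. The liver also makes many of these transferases, and the 19 liver markers measured had array means from -1.36 to -0.61 in SDHD-ESR and from -1.31 to -0.98 in +/-, with 10 called lower and 1 higher than the pool in SDHD-ESR (8.18% and 16% of all genes) and 9 lower and 1 higher in +/- (6.24% and 11.1%). The median difference between the groups over these markers was 0.11. Of the 9 proximal tubule markers measured 5 had a feature near 0, and of the other 4, 1 had a higher and 3 a lower mean in SDHD-ESR. Among the lower ones was Slc22a6, at 0.00, 0.05, -0.40 and -0.96 in SDHD-ESR and 0.18, 0.18, -0.20 and -0.41 in +/-. These values also followed the array medians with their sign changed, so its lower mean carries little information. The 8 markers of the loop of Henle, distal tubule and collecting duct had array means from 0.01 to 0.25 in SDHD-ESR and from -0.10 to 0.17 in +/-. Their median difference of 0.13, with 6 of 8 higher, was 0.26 on slide 1 and 0.03 on slide 2, as the transferases also differed more on slide 1. The 11 leukocyte markers had array means from -0.36 to -0.18 in SDHD-ESR and from -0.33 to 0.02 in +/-, with a median difference of -0.16. The median difference was -0.09 over 4 podocyte markers and -0.08 over 6 fat markers. The part of cell makeup in the values of the transferases was not tested.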

How the data were processed

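Kidney RNA was labelled by the authors with Cy5 for test samples and Cy3 for the +/+ pool on all arrays, with no dye swap, from 200 ng of RNA. The authors deposited log2 ratios of the channels mixed with other values, so that the unit of the table as a whole was taken as other: 9.05% of values were whole numbers, of up to 65024, and were set missing. How background was corrected and arrays were normalized is not given in the sources used here. Feature numbers were mapped through a grid of 532 by 85, inferred from the values, and 33026 features carried a gene symbol.

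From these values the sign was turned, each array was centred on its median, and limma 3.58.1 (R 4.3.3) was fitted to features with at least 3 values per group (a mean per group, empirical Bayes, two-sided, Benjamini-Hochberg over all features). The same fit was run on means over the features of a gene. The steps were tested on simulated data. The number of arrays limits the precision, and how far spots lay above background is unknown. The p-values measure the spread between arrays.

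Genes named in the text were Gm10639 and Sdhd, up to 3 genes of smallest unadjusted p in each family, genes called in any comparison (the 5 highest and 5 lowest where over 10), and 2 of smallest p in each pathway list. Gsta1, Gsta4, Gstm3, Gstm7, Sult1b1, Ugt2b35 and genes near the value minimum or near 0 were named after their values were seen. The members, lists and rules were chosen with earlier results of these data known. Alternatives were no centring, quantile normalization, slide as a block, replicate number as a block, features near 0 left out, small whole numbers kept, features with all 8 values, a robust prior, medians over features, and each array left out. Upstream sequences came from RefSeq (GRCm38.p6).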

Additional observations from a re-analysis of the deposited data

Results flagged for a closer look

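Ugt2a1, a glucuronosyltransferase, stood at 0.60 on +/- array 4, apart from the other +/- arrays at 0.30 to 0.35, with a gap of 0.84 of the group's range. It was the single such value among 58 groups looked at, where chance gives about 1 in 20.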

How the results depend on the processing

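Between SDHD-ESR and +/- limma called 0 member features and 0 member genes under every alternative run (16 features and 9 genes passed 0.05 without adjustment in the values reported). Before centring, calls against the pool fell to 9 features and 2 genes in SDHD-ESR and to 0 features and 0 genes in +/-, and the median difference of member features was 0.47. The difference of any feature on the array with values on every array lies 0.26 higher before centring. Quantile normalization gave 25 genes in SDHD-ESR and 35 features and 23 genes in +/-. Without 1 array, calls against the pool ranged from 20 to 28 features and 13 to 17 genes in SDHD-ESR and from 4 to 14 features and 1 to 11 genes in +/-, and the median difference from 0.14 to 0.25. After centring, that median was 0.39 on slide 1 alone and -0.018 on slide 2 alone. The replicate numbers did not pair the arrays (r of the deviations of same-numbered arrays from -0.00 to 0.05), and with a replicate block 21 features and 10 genes were called in SDHD-ESR and 5 features and 2 genes in +/-. The counts of calls in this section, between the groups and against the pool, include Gm10639, which carries no test. They stand without the share of all features or genes called under the same alternative. A change in them is therefore not read as particular to the members. Before centring the difference changed sign in 8 of 51 genes, Gstp2 (0.22), Gstt2 (0.13), Mgst2 (0.10), Sult4a1 (0.24), Ugt2a1 (0.0084), Ugt2b5 (0.0037), Ugt3a1 (0.18) and Ugt3a2 (0.06). Among the 29 genes followed through the other alternatives, it changed sign with features near 0 left out in Gstp2 (0.13). With each array left out in turn the difference ranged from -0.086 to 0.0076 in Gstp2 (above 0 without SDHD-ESR replicate 4 or +/- replicate 1) and from -0.16 to 0.62 in Sult6b2 (below 0 without SDHD-ESR replicate 3 or +/- replicate 2). The cause was not tested.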
